A study of Mus musculus with 55 samples.

Results

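The 9 genes described here are given in the order of their roles on chromosomes: the meiotic cohesin subunits Rec8, Smc1b and Stag3, the cohesin protector Sgo2a, the checkpoint genes Bub1b and Mad2l1, and the Aurora kinase genes Aurka, Aurkb and Aurkc. They were taken as a list of 9 symbols among the 51734 genes counted in each oocyte, and all 9 were listed in every file, Sgo2a under its older symbol Sgol2a. The study asked how the ADD domains of DNMT3A and DNMT3L, the parts of these DNA methylation proteins that read unmodified histone H3, shape methylation and transcription in mouse germ cells. Fully grown oocytes (FGOs) were wild type (18 oocytes), Dnmt3L ADD/ADD (8 oocytes, labelled Dnmt3a+/+ with Dnmt3L D124A/D124A), Dnmt3a ADD/ADD (8 oocytes, labelled Dnmt3a ADA/ADA with Dnmt3L+/+) or double mutant (8 oocytes, with Dnmt3a ADA/ADA and Dnmt3L D124A/D124A together). A further 10 wild-type oocytes were at metaphase II (MII). The ADD/ADD genotypes are called Dnmt3L, Dnmt3a and double mutants below. FGOs came from ovaries of females aged 10 to 12 weeks, punctured with a needle and washed free of cumulus cells. The mutant alleles were made by CRISPR-Cas9 and backcrossed to C57BL/6J, they exchange amino acids in the proteins, and every cell of the female carried them. The labels do not tell which female an oocyte came from, so a p-value measures the spread between oocytes, some of which may share a mother. The methods describe MII oocytes as ovulated after hormone injection, a treatment not given for FGOs, in females whose range of ages starts and ends later than that of the FGO females, so that maturation, hormone treatment and age cannot be told apart.

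Cohesin is a protein ring that holds sister chromatids together. In meiosis its mitotic kleisin RAD21 is largely replaced by REC8, SMC1A by SMC1B, and STAG1 or STAG2 by STAG3. The ring is cut by separase along chromosome arms at anaphase I, while shugoshin (SGO2) bound at centromeres brings the phosphatase PP2A and keeps REC8 from being cut until anaphase II. BUBR1, encoded by Bub1b, and MAD2, encoded by Mad2l1, hold back the anaphase-promoting complex until kinetochores are attached, Aurora A builds the spindle poles, and Aurora B and the germline kinase Aurora C correct wrong attachments within the chromosomal passenger complex. A fully grown oocyte is arrested in prophase I and largely silent in transcription, an MII oocyte has completed the first division, and both run on stored mRNA.

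The values are reads counted per gene from single-oocyte libraries primed on poly(A) tails, with total counts of 7832458 to 23739871 per library. They are given as CPM, the count relative to the library total on 1 scale of TMM factors over all 52 libraries, or per kilobase of exon as well (RPKM) where genes are compared with each other. Such values are shares of the polyadenylated RNA in an oocyte, and the amount of RNA per oocyte was not measured. All 12 oocyte markers looked for had counts in every group, and their summed level had a median of 11350 CPM in wild-type FGOs, 9708 in Dnmt3L mutants, 9019 in Dnmt3a mutants, 13030 in double mutants and 9299 in MII oocytes. Granulosa and cumulus markers summed to 115 to 275 CPM per oocyte, with Ptx3, Tnfaip6 or Amh at 0 in some groups. Theca markers summed to 6.86 to 65.0 CPM in wild-type FGOs and to 1.48 to 3.27 CPM in double mutants. Stroma and blood markers summed to 59.7 to 101 CPM in wild-type FGOs, 78.9 to 126 in Dnmt3a mutants and 46.2 to 68.7 in double mutants, with Acta2 or Hba-a1 at 0 in some groups. Markers of dividing cells, which oocytes also express, summed to 994 to 1456 CPM in wild-type FGOs, 1252 to 1365 in Dnmt3L mutants, 1215 to 1344 in Dnmt3a mutants, 1006 to 1214 in double mutants and 1259 to 1453 in MII oocytes. The range in double mutants lay below those in both single mutants and in MII oocytes, and so did the median of Aurka. The part of these levels in any difference below was not tested. The libraries fell into a lower and a higher class of mapped-read share in the study's own sequencing summary: the lower class held 8 of 18 wild-type FGOs, 0 of 8 Dnmt3L mutants, 3 of 8 Dnmt3a mutants, 8 of 8 double mutants and 3 of 10 MII oocytes. In 4 libraries (wild-type FGO replicates 4, 5 and 6 and double mutant replicate 4, all of the lower class) the median correlation with the other libraries of the group was 0.946 to 0.959, against at least 0.973 in all others. These were the 3 lowest wild-type libraries and the lowest double mutant library in both Bub1b (1119 to 1230 CPM) and Aurka (128 to 141 CPM), so results are also given without them.

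The 250 bases before the start of transcription are shown for the gene of the list with the highest level (Bub1b), the meiotic cohesin gene with the highest level (Smc1b) and the Aurora kinase gene with the highest level (Aurka), because the mutated proteins act on CG methylation and the number of CG pairs differs between these starts. The sequences are from RefSeq on GRCm38.p6, a patch release of the assembly to which the reads were aligned (mm10), and are written 5′ to 3′ on the strand of the gene. Bub1b lies at chr2:118597961-118598210 (plus strand), Smc1b at chr15:85131958-85132207 (minus strand) and Aurka at chr2:172370571-172370820 (minus strand). Capitals mark TCCCGC on either strand (GCGGGA when read on the other), the core letters of the site bound by E2F factors.
Bub1b: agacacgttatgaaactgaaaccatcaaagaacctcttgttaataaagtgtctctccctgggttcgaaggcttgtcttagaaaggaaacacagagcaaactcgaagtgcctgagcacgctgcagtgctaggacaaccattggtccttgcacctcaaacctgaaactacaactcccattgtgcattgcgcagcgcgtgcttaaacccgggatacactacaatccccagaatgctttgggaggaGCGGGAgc
Smc1b: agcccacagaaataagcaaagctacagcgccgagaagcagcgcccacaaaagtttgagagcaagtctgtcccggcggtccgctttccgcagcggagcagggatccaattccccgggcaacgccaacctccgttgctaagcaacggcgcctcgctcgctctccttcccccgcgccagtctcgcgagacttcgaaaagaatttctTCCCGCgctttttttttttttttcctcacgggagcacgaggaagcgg
Aurka: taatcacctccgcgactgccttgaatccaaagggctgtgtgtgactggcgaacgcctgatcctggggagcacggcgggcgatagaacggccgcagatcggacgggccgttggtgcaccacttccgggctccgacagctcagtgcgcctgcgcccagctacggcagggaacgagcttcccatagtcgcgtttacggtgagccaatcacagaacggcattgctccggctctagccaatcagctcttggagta
The Smc1b and Aurka windows hold 25 and 23 CG pairs, more than 89.3% and 86.7% of the 32851 promoter windows of the same length, whose median is 6. The Bub1b window holds 9. Of the other members, Stag3 has 26, Mad2l1 13, Rec8 10 and Aurkc 6 CG pairs, and Sgo2a has 8 and 15 at its 2 listed starts. The starts are those of RefSeq and can differ from those of the counted genes. The Stag3 window lies inside the counted gene, and the Rec8 and Aurkc windows run past its start. The first Sgo2a window ends at 57985339, while the counted gene starts at 57995971. TCCCGC on either strand was found in the windows of Bub1b, Smc1b, Rec8 and the second Sgo2a start, and is present in 16.9% of all windows. The E-box CACGTG, held by 6.02% of all windows, was found in that of Stag3. No promoter was matched for Aurkb. DNA methylation at these starts was not analysed here.

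Compared per length in wild-type FGOs, the 9 transcripts spanned from Bub1b, at 428 ± 91.9 RPKM (SD, n = 18), down to Rec8, at 0.0241 ± 0.0275 RPKM. Aurka followed Bub1b at 84.2 ± 16.3 RPKM and Aurkc at 58.7 ± 7.26 RPKM. Mad2l1 was at 15.3 ± 1.29, Smc1b at 9.16 ± 1.67, Sgo2a at 6.33 ± 0.599, Aurkb at 6.21 ± 0.762 and Stag3 at 1.92 ± 0.449 RPKM. Most neighbours in this order were separate in nearly every oocyte, since Aurka lay above Aurkc in 18 of 18 and Smc1b above Sgo2a in 16 of 18. Sgo2a and Aurkb did not differ beyond their spread, with Sgo2a the higher in 11 of 18 oocytes. In MII oocytes the order was the same except for that pair, with Aurkb (7.72 ± 0.993 RPKM, n = 10) above Sgo2a (5.92 ± 0.729 RPKM) in 9 of 10. The values are also shaped by the counted exon length, which for Mad2l1 (8390 bases) sums over all annotated exons and lowers its value per kilobase if the oocyte uses a shorter transcript. For Sgo2a 35.0% of the exon bases overlap exons of Kctd18, and how reads of the overlap were counted is not stated. Its place in the order beside Smc1b and Aurkb is therefore uncertain.

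**Figure D1:**
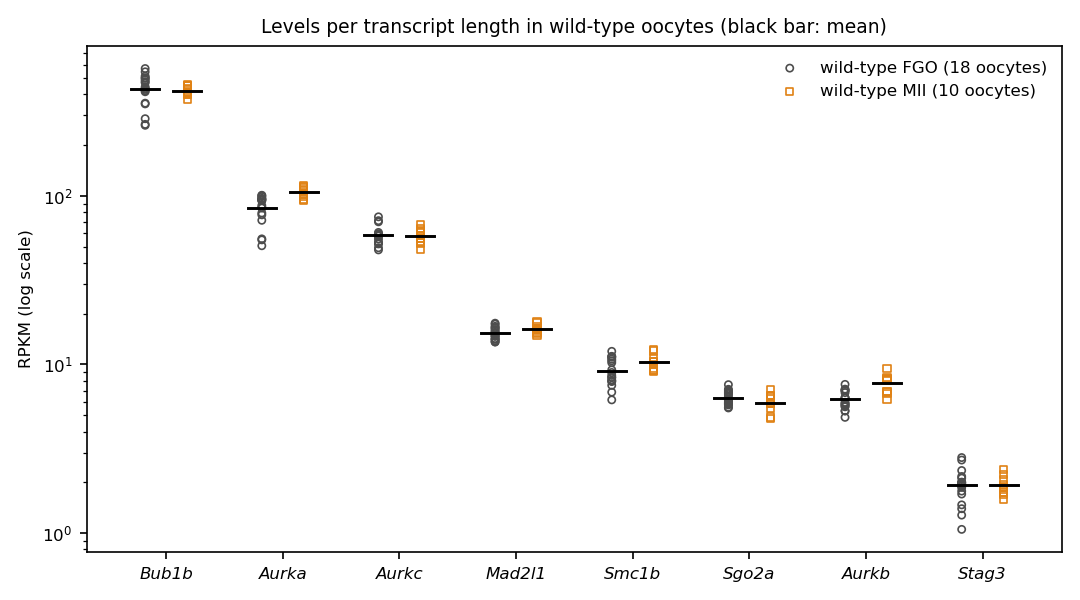
Transcript level in RPKM on a log axis for 8 of the 9 genes in wild-type FGOs (circles, 18 oocytes) and MII oocytes (squares, 10 oocytes), with black bars for the means. Bub1b lies above all others, Sgo2a and Aurkb overlap in FGOs, and Rec8 is left out because most of its values are 0.

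Rec8, which encodes the meiotic kleisin, was close to the limit of detection. Over the 52 oocytes 41 reads were counted, 37 oocytes had none, and no oocyte had more than 8. Wild-type FGOs had 19 reads in 9 of 18 oocytes, Dnmt3L ADD/ADD FGOs 8 reads in 2 of 8, Dnmt3a ADD/ADD FGOs 13 reads in 3 of 8, double mutants 0 reads in 8, and MII oocytes 1 read in 1 of 10. The pooled levels were 0.0702, 0.0717, 0.109, 0 and 0.00767 CPM in that order. If reads fell independently of the oocyte, 0 reads in the double mutants would allow up to 0.027 CPM. Rad21, the mitotic kleisin gene, was at 264 ± 36.6 CPM in the same wild-type FGOs. Rad21l, the other meiotic kleisin gene, was at 6.63 ± 2.84 CPM. The limit for the double mutants and the pooled MII level lay below the pooled wild-type level, which itself rests on at most 4 reads in an oocyte. Reads were uneven between oocytes, with 6 of the 8 Dnmt3L reads and 8 of the 13 Dnmt3a reads in 1 oocyte each. A limit that takes in this spread would be higher, so the order of these levels does not set the groups apart. Rec8 did not pass the filter on low counts, and no difference between groups was tested. Its exons share no bases with another annotated gene at chr14:55618037-55625395 (mm10, plus strand), so that overlap does not take reads from it.

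Smc1b, the meiotic partner of SMC3 in the ring (chr15:85064691-85131957, minus strand), was present in every oocyte. The lowest, median and highest values were 24.9, 35.5 and 48.3 CPM in wild-type FGOs, 31.3, 32.5 and 37.8 in the Dnmt3L mutants, 30.4, 35.0 and 40.5 in the Dnmt3a mutants, 27.4, 33.2 and 48.1 in double mutants, and 36.8, 41.3 and 49.5 in MII oocytes. All mutant oocytes lay inside the wild-type range, and 10 of 10 MII oocytes lay above the median wild-type FGO. The log2 differences from wild-type FGOs were -0.16, -0.07 and -0.12 in the 3 mutants, and 0.17 in MII (95% interval 0.00 to 0.34, adjusted p = 0.11 by edgeR). Without the 4 libraries that stand apart the MII difference was 0.21, at an adjusted p of 0.0494.

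Stag3, the meiotic subunit that binds the kleisin (chr5:138280240-138312393, plus strand), had 6.03, 11.2 and 16.1 CPM as lowest, median and highest values in wild-type FGOs. The corresponding values were 5.67, 9.70 and 11.9 in Dnmt3L mutants, 6.56, 9.39 and 11.5 in Dnmt3a mutants, 7.09, 8.67 and 12.5 in double mutants and 9.10, 10.7 and 13.7 in MII oocytes. In each mutant only 1 or 2 of 8 oocytes lay above the wild-type median, but the ranges overlapped. The log2 differences of -0.24, -0.27 and -0.32 had 95% intervals of -0.53 to 0.04, -0.56 to 0.01 and -0.61 to -0.04. Their adjusted p-values were 0.304, 0.184 and 0.119, so none passed the threshold of 0.05. From FGO to MII the difference was 0.00, with an interval of -0.24 to 0.24.

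Sgo2a, the centromeric protector of cohesin, was higher in double mutant and Dnmt3a ADD/ADD FGOs. Wild-type FGOs had 38.7, 43.3 and 53.2 CPM (lowest, median and highest), double mutants 47.6, 52.8 and 58.4, Dnmt3a ADD/ADD 43.8, 49.99 and 55.8, Dnmt3L ADD/ADD 43.4, 47.6 and 53.5, and MII oocytes 33.4, 41.4 and 49.5. Every one of the 24 mutant oocytes lay above the wild-type median, and 4 double mutant oocytes lay above all 18 wild-type oocytes, while the ranges still overlapped. The gain over wild type was 1.19-fold in double mutants (log2 0.25 ± 0.055 SE, adjusted p = 0.00352 by edgeR) and 1.12-fold in Dnmt3a ADD/ADD (log2 0.17 ± 0.056 SE, adjusted p = 0.0327). The Dnmt3a ADD/ADD call was lost when any 1 of 12 of the 26 libraries was left out (values 0.14 to 0.19). In Dnmt3L ADD/ADD the difference was 0.12 (interval 0.01 to 0.23, adjusted p = 0.200), and in MII -0.10 (adjusted p = 0.168). Double mutants were all of the lower mapped-read class: against the 8 wild-type FGOs of that class the log2 difference was 0.20 (adjusted p = 0.236), and with the class as a covariate 0.20 (adjusted p = 0.0627). Without the 4 libraries apart it was 0.27 in double mutants (adjusted p = 0.000994) and 0.16 in Dnmt3a ADD/ADD (adjusted p = 0.055), and within the classes the Dnmt3a ADD/ADD value was 0.17 (lower) and 0.18 (higher), not past the threshold in either. Of the 7007 exon bases of Sgo2a (chr1:57995971-58025899, plus strand), 2455 (35.0%) overlap exons of Kctd18 on the other strand, and with no strand setting stated the reads of the overlap cannot be told apart. Kctd18 itself differed from wild-type FGOs by 0.08, 0.04 and 0.04 on the log2 scale in the 3 mutants and by -0.01 in MII, none past the threshold. The related gene Sgo2b was at 35.6 ± 9.78 CPM in wild-type FGOs, and its log2 differences of 0.02, 0.17 and -0.17 in the 3 mutants did not pass.

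Bub1b, which encodes the checkpoint protein BUBR1 (chr2:118598211-118641591, plus strand), was the most abundant of the 9 transcripts in every group, and also varied widely between wild-type FGOs. Wild-type FGOs had 1119, 1871 and 2429 CPM (lowest, median and highest), Dnmt3L ADD/ADD 1659, 1906 and 2201, Dnmt3a ADD/ADD 1585, 1836 and 2222, double mutants 1230, 1716 and 1886, and MII oocytes 1595, 1786 and 1955. The coefficient of variation was 21.5% in wild-type FGOs and 6.46% in MII oocytes. The spread was wider in 1 class of libraries. The 8 wild-type FGOs of the lower mapped-read class ranged from 1119 to 2429 CPM, and the 10 of the higher class from 1796 to 2323 CPM. Log2 differences from wild type were 0.06 in Dnmt3L mutants, 0.02 in Dnmt3a mutants, -0.19 in double mutants (adjusted p = 0.239) and -0.03 in MII, with no call. Without the 4 libraries apart the double mutant difference was -0.23 (adjusted p = 0.023), and within the lower class it was 0.03 (adjusted p = 0.976). In MII against FGOs of the higher class it was -0.16 (adjusted p = 0.0142).

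Mad2l1, whose product MAD2 inhibits the anaphase-promoting complex (chr6:66535390-66547220, plus strand), kept within a narrow band. The lowest, median and highest values were 114, 127 and 147 CPM in wild-type FGOs, 124, 143 and 147 in Dnmt3L mutants, 115, 140 and 159 in Dnmt3a mutants, 119, 125 and 139 in double mutants, and 124, 135 and 151 in MII oocytes. Among the single mutants 7 of 8 oocytes (Dnmt3L) and 6 of 8 oocytes (Dnmt3a) lay above the wild-type median, against 3 of 8 double mutants. The log2 differences of 0.13, 0.12 and -0.03 did not pass the threshold singly (adjusted p = 0.134, 0.116 and 0.713), nor did 0.09 in MII (adjusted p = 0.127).

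Aurka, the spindle pole kinase (chr2:172356190-172370535, minus strand), rose in Dnmt3a ADD/ADD FGOs and at MII, relative to FGOs of the wild type. Wild-type FGOs had 128, 229 and 255 CPM (lowest, median and highest), Dnmt3a ADD/ADD 213, 272 and 279, Dnmt3L ADD/ADD 230, 254 and 291, double mutants 132, 167 and 227, and MII oocytes 237, 265 and 290. All double mutant oocytes lay below the wild-type median, while 8 of 8 Dnmt3L mutant, 7 of 8 Dnmt3a mutant and 10 of 10 MII oocytes lay above it, and 4, 6 and 7 of these lay above every wild-type FGO. The gain was 1.23-fold in Dnmt3a ADD/ADD (log2 0.30 ± 0.10 SE, adjusted p = 0.0376 by edgeR) and 1.24-fold in MII (log2 0.32 ± 0.086 SE, adjusted p = 0.0032). The call in Dnmt3a ADD/ADD was lost without any 1 of 12 of its 26 libraries (values 0.27 to 0.32). Dnmt3L ADD/ADD differed by 0.28 (adjusted p = 0.095) and double mutants by -0.27 (adjusted p = 0.0819). The 4 libraries apart bore on these values, because 3 of them were the wild-type FGOs with the least Aurka: without them the log2 differences were 0.20 in Dnmt3a ADD/ADD (adjusted p = 0.0536), 0.18 in Dnmt3L ADD/ADD (adjusted p = 0.149), -0.31 in double mutants (adjusted p = 0.00246) and 0.21 in MII (adjusted p = 0.00637). Among libraries of the higher class the values were 0.15 in Dnmt3a ADD/ADD (adjusted p = 0.143), 0.17 in Dnmt3L ADD/ADD (adjusted p = 0.0458) and 0.18 in MII (adjusted p = 0.0113). Among those of the lower class they were 0.52 in Dnmt3a ADD/ADD (adjusted p = 0.172), -0.12 in double mutants (adjusted p = 0.895) and 0.51 in MII (adjusted p = 0.12).

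Aurkb, the kinase of the chromosomal passenger complex in somatic cells (chr11:69045647-69051664, plus strand), rose in these groups as well, from a lower level. Wild-type FGOs had 14.3, 18.1 and 22.4 CPM, Dnmt3a ADD/ADD 15.4, 24.3 and 27.4, Dnmt3L ADD/ADD 16.8, 22.6 and 25.5, double mutants 14.7, 16.4 and 20.6, and MII oocytes 18.3, 23.8 and 27.9. In each single mutant 7 of 8 oocytes lay above the wild-type median and in MII 10 of 10, against 1 of 8 double mutants, with overlapping ranges throughout. The gain was 1.26-fold in Dnmt3a ADD/ADD (log2 0.34 ± 0.085 SE, adjusted p = 0.00587 by edgeR) and 1.24-fold in MII (log2 0.31 ± 0.078 SE, adjusted p = 0.00118). Both passed without the 4 libraries apart, at 0.29 (adjusted p = 0.0185) and 0.27 (adjusted p = 0.00651). Within the classes the Dnmt3a ADD/ADD value was 0.46 (lower, adjusted p = 0.0992) and 0.26 (higher, adjusted p = 0.181), and the MII value 0.34 (lower, adjusted p = 0.131) and 0.29 (higher, adjusted p = 0.0224). The differences of 0.25 in Dnmt3L ADD/ADD (adjusted p = 0.0739) and -0.12 in double mutants (adjusted p = 0.352) did not pass.

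Aurkc, the germline Aurora kinase that takes over much of the passenger complex in oocytes (chr7:6995300-7003091, plus strand), passed the test in no comparison. Its lowest, median and highest values were 72.7, 89.3 and 114 CPM in wild-type FGOs, 73.0, 77.7 and 94.2 in Dnmt3L mutants, 66.6, 79.8 and 94.6 in Dnmt3a mutants, 66.4, 82.0 and 92.8 in double mutants, and 73.4, 87.1 and 103 in MII oocytes. At most 3 of 8 oocytes of a mutant lay above the wild-type median, and the ranges overlapped. The log2 differences of -0.13, -0.13 and -0.17 in the 3 mutants (adjusted p = 0.285, 0.215 and 0.104) and -0.02 in MII (adjusted p = 0.833) did not pass.

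**Figure D2:**
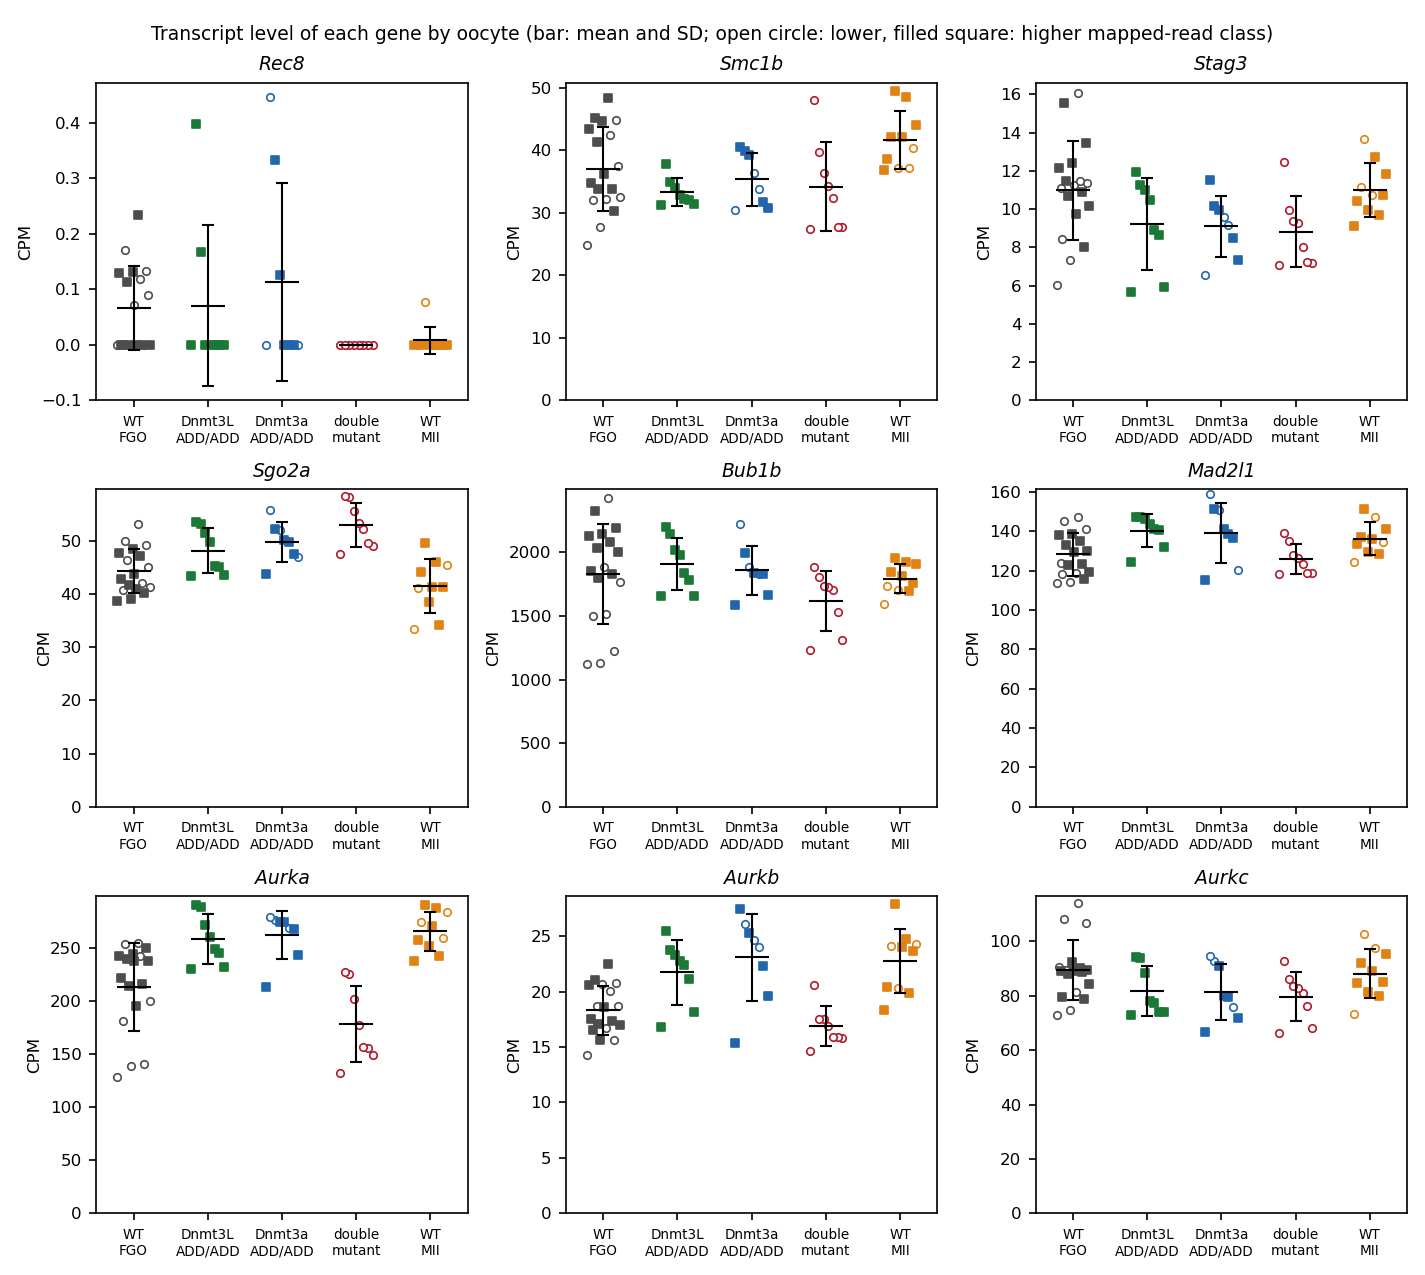
Level of each gene in CPM in every oocyte of the 5 groups, with the mean and SD as black bars, open circles for the lower and filled squares for the higher mapped-read class. Double mutants have the highest mean of Sgo2a and the lowest of Aurka, and the 3 low wild-type values of Bub1b and Aurka are of the lower class.

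Counted over the 8 genes tested, 3 were called in Dnmt3a ADD/ADD FGOs (Sgo2a, Aurka and Aurkb, all higher), at an adjusted p under 0.05. That is 37.5% of the 8, beside 15.7% of all 15726 genes tested in either direction and 8.06% in the higher direction. In double mutants 1 was called (Sgo2a), which is 12.5% of the 8 beside 12.2% of all genes in either direction and 5.51% in the higher direction. In Dnmt3L ADD/ADD edgeR called 0 of 8 beside 6.13% of all genes, and DESeq2 called 0 of 8 beside 8.17% of all genes. From FGO to MII 2 of 8 were called (Aurka and Aurkb), or 25.0%, beside 39.1% of 15784 genes in either direction and 16.5% in the higher direction. The median size of the change was 0.09 on the log2 scale for the 8 genes and 0.22 for all genes. No member changed by more than 2-fold in any comparison, a size that, together with the adjusted p, was passed by 0.655% of all genes in Dnmt3L mutants, 2.05% in Dnmt3a mutants, 1.65% in double mutants and 9.2% in MII. All 3 mutant comparisons and the MII comparison use the same 18 wild-type FGOs. The members and the pathway lists below were chosen with earlier results of these data known. The shares called are therefore descriptions, and do not test these genes against all genes.

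**Figure D3:**
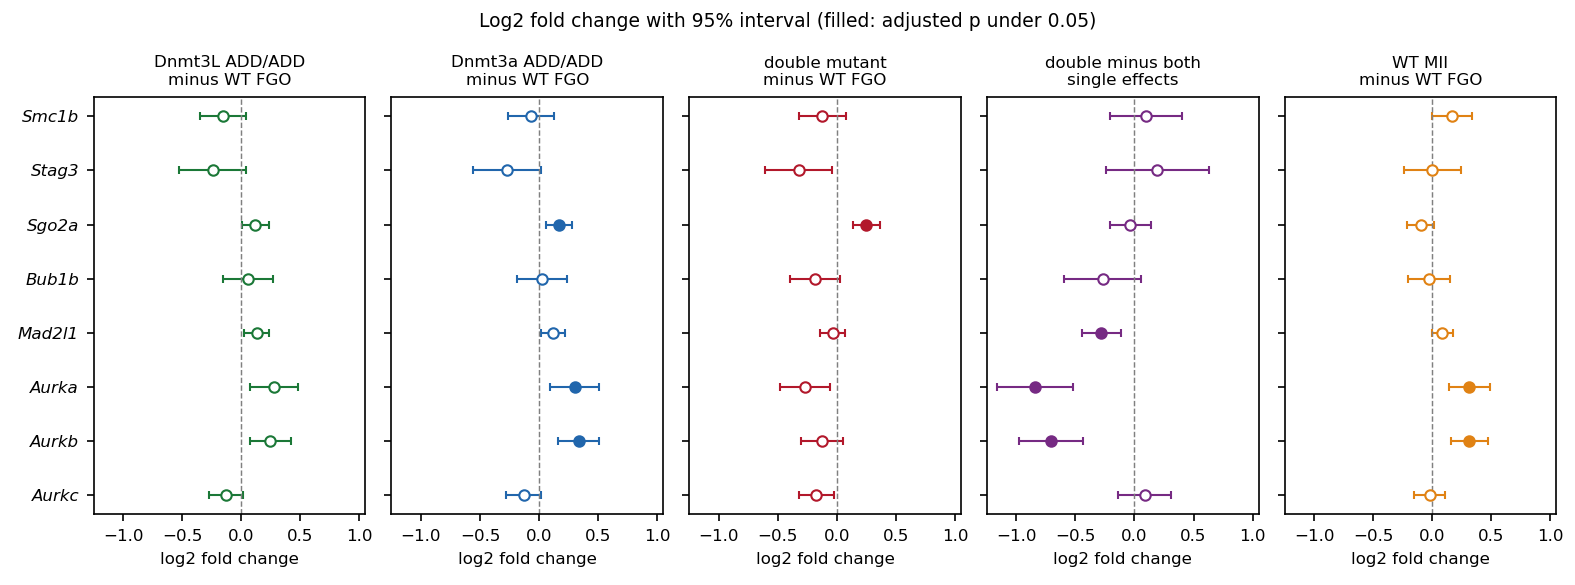
Log2 fold change and 95% interval (edgeR) of the 8 genes tested against wild-type FGOs, and for the double mutant minus the sum of both single mutant effects, with filled points for an adjusted p under 0.05. Aurka and Aurkb lie to the right of 0 in the single mutants and MII, and to the left for the double mutant minus the single effects.

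The 4 genotypes allow a test of whether the effects of both mutations add up. For Aurka the double mutant was below the sum of the single effects by 0.84 on the log2 scale (log2 -0.84 ± 0.16 SE, adjusted p = 9.75e-05 by edgeR), for Aurkb the value was -0.71 ± 0.13 SE (adjusted p = 9.89e-05), and for Mad2l1 -0.28 ± 0.081 SE (adjusted p = 0.00683). For Sgo2a the departure was -0.04 (interval -0.21 to 0.14), and for Aurkc 0.09 (interval -0.14 to 0.31). Calls in 3 of 8 genes, or 37.5%, stand beside 35.6% of all genes tested in either direction and 16.3% in the lower direction. With the mapped-read class as a covariate the values were -0.69, -0.75 and -0.29, with adjusted p-values of 0.00872, 0.0012 and 0.0363, where 14.2% of all genes were called. Without the 4 libraries apart they were -0.68, -0.66 and -0.24, with adjusted p-values of 1.31e-05, 0.000319 and 0.028. Because all double mutants were of the lower class and all Dnmt3L ADD/ADD FGOs of the higher class, no single class holds all 4 genotypes.

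Ratios of paired genes within an oocyte do not depend on the scaling between libraries, and are given as descriptions on the log2 scale per exon length. In wild-type FGOs Aurkc exceeded Aurkb by 3.24 ± 0.16 (SD, n = 18), or 9.44-fold, and Aurka exceeded Aurkc 1.42-fold (log2 Aurkc to Aurka -0.50 ± 0.23). The ratio of Aurkc to Aurka was -0.96 ± 0.15 in Dnmt3a ADD/ADD, -0.93 ± 0.14 in Dnmt3L ADD/ADD, -0.41 ± 0.20 in double mutants and -0.86 ± 0.19 in MII oocytes. All 8 Dnmt3a ADD/ADD oocytes lay below all 18 wild-type FGOs, but only just, the highest at -0.773 against the lowest wild type at -0.770. The Dnmt3L ADD/ADD range, with its highest value at -0.733, overlapped. In wild-type FGOs it also differed by class, at -0.29 ± 0.18 in the lower and -0.67 ± 0.08 in the higher. The ratio of Aurkc to Aurkb was 2.78 and 2.87 in the Dnmt3a and Dnmt3L single mutants and 2.91 in MII, with every oocyte of these groups below the wild-type median, and 3.19 in double mutants. Sgo2a was below Sgo1, the other shugoshin gene, by 1.47 in wild-type FGOs (log2 Sgo2a to Sgo1 -1.47 ± 0.14), with -1.26, -1.24 and -1.16 in the Dnmt3L, Dnmt3a and double mutants and -1.68 in MII. The overlap of Sgo2a with Kctd18 may also bear on the level of this ratio. Stag3 stood at -3.35 ± 0.53 against the sum of Stag1 and Stag2 in wild-type FGOs, at -3.70, -3.77 and -3.75 in the mutants and at -2.89 ± 0.17 in MII, where all 10 oocytes lay above the wild-type median. This ratio too differed by class in wild-type FGOs, at -3.67 ± 0.52 in the lower and -3.10 ± 0.40 in the higher. All double mutants were of the lower class, so their value is close to that of wild-type FGOs of the same class. Smc1b against Smc1a was at -1.65 ± 0.43 in wild-type FGOs and -1.40 ± 0.11 in MII. Thus in every group the mitotic cohesin genes Smc1a, Stag1 with Stag2, and Rad21 were more abundant per length than their meiotic partners.

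**Figure D4:**
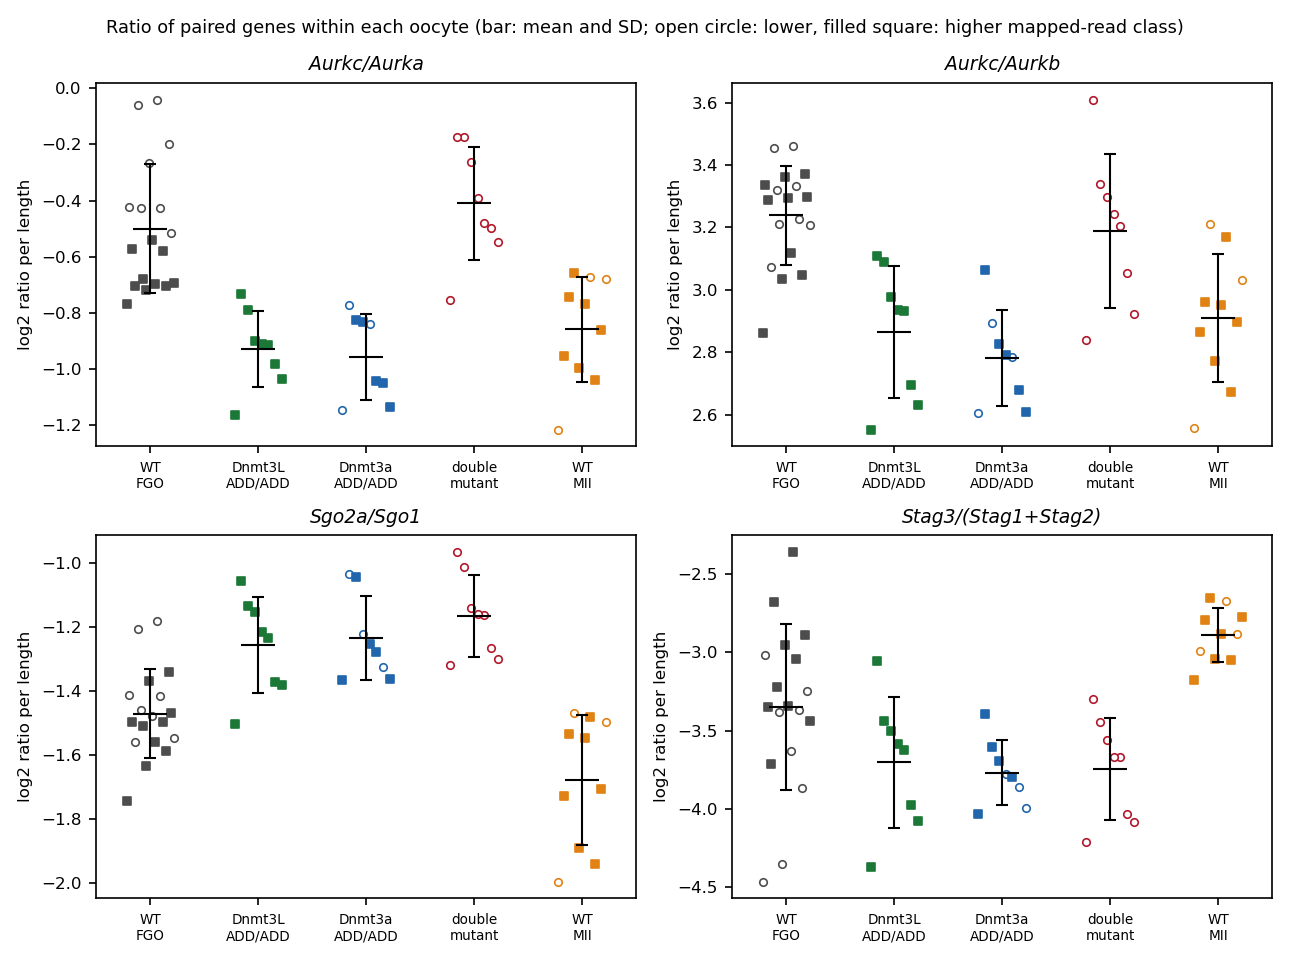
Log2 ratio per exon length of paired genes within each oocyte of the 5 groups, with the mean and SD as black bars, open circles for the lower and filled squares for the higher mapped-read class. The Aurkc to Aurka ratios of Dnmt3a ADD/ADD lie below all those of wild-type FGOs, the highest only just, and those of double mutants lie among the wild-type ratios.

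Among 56 other genes of the same pathways, all tested, Espl1, which encodes separase, was higher in each mutant. Its level was 316 ± 16.5 CPM in wild-type FGOs, 394 ± 15.7 in Dnmt3L mutants, 416 ± 27.2 in Dnmt3a mutants and 394 ± 54.0 in double mutants (log2 0.32, 0.40 and 0.31, adjusted p = 5.72e-05, 2.09e-07 and 5.38e-05 by edgeR), and 275 ± 15.3 in MII oocytes (log2 -0.20, adjusted p = 0.000195). With the class as a covariate the 3 mutant values were 0.32, 0.40 and 0.31, all past the threshold. In Dnmt3L ADD/ADD 1 of 56 genes rose and 1 fell, together 3.57% beside 6.13% of all genes. The gene that fell was Mad2l1bp, which encodes a MAD2 binding protein (-0.46), and its call was lost with the class as a covariate (adjusted p = 0.056) and without the 4 libraries apart (adjusted p = 0.0566). In Dnmt3a ADD/ADD 6 rose and 4 fell, together 17.9% beside 15.7% of all genes. Of the 10 Aurora partners, Bora, an activator of Aurora A (0.30), and Cdca8, the passenger complex subunit borealin (0.22), rose and Birc5, its subunit survivin (-0.15), fell. The checkpoint gene Mad1l1 rose (0.36), as did the cohesin acetyltransferase gene Esco1 (0.20) and Cdca5, which encodes sororin (0.15), while Kntc1 (-0.24), Esco2 (-0.26) and the PP2A subunit gene Ppp2cb (-1.79, at 3.65 ± 3.98 CPM in wild-type FGOs) fell. Leaving out the 4 libraries apart, 4 rose and 2 fell, beside 13% of all genes, and the calls of Cdca8 (adjusted p = 0.07), Esco1 (0.0856), Cdca5 (0.0951), Esco2 (0.158) and Ppp2cb (-0.96, adjusted p = 0.131) were lost. With the class as a covariate Esco2 (adjusted p = 0.0662) and Ppp2cb (adjusted p = 0.071) lost their calls.

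In double mutants 5 of the 56 genes rose and 10 fell, together 26.8% beside 12.2% of all genes, and 4 of the 10 Aurora partners were among those that fell, beside 6.74% of all genes in that direction. These included Incenp, the scaffold of the passenger complex (-0.40), Tpx2, which activates Aurora A on the spindle (-0.26), and Haspin, the histone kinase that places the complex at centromeres (-0.25). Of the 17 checkpoint and kinetochore genes, Mad1l1 (-0.37), Ndc80 (-0.37), Cenpe (-0.33) and Nuf2 (-0.22) fell and Bub1 rose (0.27). Of the 15 cohesin genes, Pds5a (0.58), Hdac8 (0.34) and Mau2 (0.18) rose and Smc3 fell (-0.27), and of the 14 protection and cleavage genes Meikin fell (-0.29). With the class as a covariate 2 rose (Espl1 and Bub1) and none fell, beside 2.61% of all genes called, and against lower-class wild-type FGOs none was called in either direction, beside 0.91% of all genes. Without the 4 libraries apart 10 rose and 15 fell, beside 25.7% of all genes.

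From FGO to MII 11 of the 56 genes rose and 13 fell, together 42.9% beside 39.1% of all genes. With the class as a covariate the counts were again 11 and 13, with Esco2 no longer called (adjusted p = 0.0719) and Ndc80 called instead (-0.20, adjusted p = 0.0259). Spc24, a subunit of the NDC80 kinetochore complex, fell to 0.491-fold (24.7 ± 4.502 to 12.1 ± 2.17 CPM, adjusted p = 3.94e-12), and Ppp2cb to 0.18-fold (adjusted p = 0.00041). Cohesin genes that fell were Pds5a (-0.61), Stag2 (-0.61), Rad21l (-0.58), Pds5b (-0.50) and Esco2 (-0.20). Those that rose were Cdca5 (0.23), Nipbl (0.21) and Esco1 (0.16). Among checkpoint genes Ttk (0.27) and Bub3 (0.24) rose, and 4 fell, among them Spc24, Trip13 (-0.32) and Bub1 (-0.30). Among Aurora partners Haspin (0.30) and Bora (0.21) rose with Aurka and Aurkb, and Cep192, which brings Aurora A to the spindle pole (-0.31), fell. Among protection genes 4 rose, including the PP2A subunit genes Ppp2r5b (0.30), Ppp2r5d (0.21) and Ppp2ca (0.15), and 3 fell, including Ppp2r5e (-0.23). With the 4 libraries apart left out, 9 rose and 12 fell, beside 30.9% of all genes. Of the genes named here, Rad21l (-0.36, adjusted p = 0.188), Esco1 (adjusted p = 0.118), Esco2 (adjusted p = 0.259), Trip13 (adjusted p = 0.0886) and Ppp2r5d (0.13, adjusted p = 0.077) then lost their calls. Pds5a (-0.38) and Ppp2cb (-1.63) stayed past the threshold with smaller changes. The median change was 0.04 over the 56 genes and -0.05 over all genes.

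Aurka and Aurkb rose to MII by nearly the same amount, and which was higher depended on the libraries used. No member was called lower in the fit of all 52 libraries, where Sgo2a had -0.10, Bub1b -0.03 and Aurkc -0.02. The pattern of Aurka was set beside that of all genes. Over the 5 group means of log2 CPM, each centred on its own mean, the genes nearest to Aurka among 15784 were Ccdc58 (distance 0.043), Ecsit (0.056) and AU040320 (0.056). For Aurka the centred means were -0.14 in wild-type FGOs, 0.16 in Dnmt3L mutants, 0.18 in Dnmt3a mutants, -0.40 in double mutants and 0.20 in MII oocytes.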

How the data were processed

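RNA-seq libraries were made from single oocytes with the SMART-Seq HT kit. The authors aligned reads to mm10 with STAR and deposited raw counts per gene from featureCounts (HTSeq is also named in their methods) for 52 oocytes, and the annotation release, strand setting and treatment of reads with several positions are not given in the sources used here. Mouse embryo tables were not used here. Groups were taken from the labels. The test was the quasi-likelihood test of edgeR 4.0.16 (R 4.3.3) after TMM scaling and filterByExpr (min.count 10), with Benjamini-Hochberg adjustment over all genes and calls at an adjusted p under 0.05. The 42 FGOs formed 1 fit, and MII was tested in 1 fit of 52 libraries. Standard errors are the fold change divided by the root of F. DESeq2 1.42.0 was an alternative. Ratios used 0.5 added counts. Replicates differed beyond counting noise (lowest chi-square per degree of freedom 5.02). Total counts per library are given with the results, and the biological coefficient of variation (25.2% in FGOs) exceeds counting error except for Rec8. Scripts were tested on simulated data. Named were all 9 members and, per comparison and sub-list of the 56 pathway genes, up to 3 called genes in each direction with the largest fold change. The members and lists were chosen with earlier results of these data known. The mutated genes carry point mutations, so their counts do not check the labels. The setting without the 4 libraries that stand apart was chosen after seeing the data.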

Additional observations from a re-analysis of the deposited data

Results flagged for a closer look

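The effect of 1 mutation differed with the presence of the other for 3 of the 8 genes tested, by the contrast of the double mutant minus both single effects in edgeR. The log2 values were -0.84 for Aurka, -0.71 for Aurkb and -0.28 for Mad2l1, and 35.6% of all genes tested passed in the same contrast. In Aurka 8 of 8 double mutant oocytes lay below the wild-type median while 8 of 8 Dnmt3L ADD/ADD and 7 of 8 Dnmt3a ADD/ADD oocytes lay above it, and no single class of mapped reads holds all 4 genotypes. In the 32 sets of a gene and a group of 4 to 10 oocytes that were examined, no single oocyte lay apart from the others of its group by Dixon's criterion. The 18 wild-type FGOs, which hold 3 of the 4 libraries apart, were too many for this criterion and were not examined.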

How the results depend on the processing

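The number of members called was recomputed under each alternative. Percentages in brackets are the shares of all genes called in the same setting. In Dnmt3a mutants the 3 calls (15.7%) fell to 1 without a filter on low counts (5.37%). They fell to 1 in a fit of both groups alone (12.4%) and 1 without the 4 libraries apart (13%). They fell to 0 within the lower class (0.878%), within the higher class (9.24%) or with a 2-fold minimum (2.05%). In double mutants the 1 call (12.2%) went to 0 with the class as a covariate (2.61%), within the lower class (0.91%) or with a 2-fold minimum (1.65%). It went to 3 without the 4 libraries apart (25.7%). In Dnmt3L mutants 1 gene was called within the higher class (9.25%). In MII 0 were called within the lower class (3 against 8 oocytes, 10.3%) or with a 2-fold minimum (9.2%). The log2 ratio of Rec8 to Rad21 moved from -11.4 to -12.7 with 0.1 added counts, since most Rec8 counts are 0. The cause of the other moves was not tested.

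Equal replicate numbers were not taken to pair the oocytes. Of 82 equal-numbered pairs 14 had a correlation of deviations over 0.1, a count not made for unequal numbers, so it cannot decide on pairing. The mean correlation between 2 groups ran from -0.048 to 0.050 for equal numbers and from -0.0070 to 0.0048 for unequal ones. With the replicate number as a block, 1 member was called in Dnmt3L mutants, 2 in Dnmt3a mutants and 0 in double mutants. For the departure from additivity 4 were called and in MII 3. The shares of all genes called under the block were 18%, 26.1%, 1.44%, 41.3% and 42% in that order. Genes called over all genes went from 1926 to 227 in double mutants and from 964 to 2830 in Dnmt3L mutants under the block, and to 410 in double mutants with the class as a covariate. Among FGOs the replicate numbers 9 to 18 occur only in wild type, so the block compared mutants with wild-type replicates 1 to 8 alone. These were all of the lower class, as were the double mutants, while all Dnmt3L mutants were of the higher class. The part of this difference in the changed counts was not tested.

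No value that turned its direction was called in either setting. These were, without TMM factors, Bub1b in Dnmt3a mutants (-0.0071), Sgo2a in the departure from additivity (0.044) and Stag3 in MII (-0.070). With the class as a covariate they were Bub1b in Dnmt3L mutants (-0.027), Aurkc in the departure (-0.028) and Stag3 in MII (-0.0058). Under the replicate block they were Smc1b in Dnmt3a mutants (0.052), Bub1b in double mutants (0.053), Smc1b (-0.035) and Sgo2a (0.012) in the departure, and Bub1b in MII (0.12). Within the higher class they were Bub1b in Dnmt3L (-0.094) and Dnmt3a mutants (-0.19) and Stag3 in MII (-0.12), and within the lower class Bub1b in double mutants (0.034) and MII (0.099). Stag3 in MII was -0.000497 in a fit of both groups and -0.0011 by the exact test. Without the 4 libraries apart they were Bub1b in Dnmt3L (-0.041) and Dnmt3a mutants (-0.078) and Smc1b in the departure (-0.017).

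Leaving out each library in turn gave 0 to 1 calls in Dnmt3L mutants, 1 to 3 in Dnmt3a mutants, 1 to 2 in double mutants, 2 to 3 in MII and 3 for the departure. Aurka in Dnmt3a mutants lost its call without wild-type FGO 1, 4, 6, 7 or 17 or mutant 1, 2, 3, 5, 6, 7 or 8, and Sgo2a without wild-type FGO 7, 9, 11, 13, 14, 15 or 17 or mutant 2, 4, 5, 6 or 8. Aurka in double mutants was called without wild-type FGO 4, 5 or 6 or mutant 1 or 6 (-0.32 to -0.21 over all), Aurkb in Dnmt3L mutants without mutant 1 (0.21 to 0.28), Mad2l1 in Dnmt3a mutants without mutant 4 (0.08 to 0.14), and, in MII, Mad2l1 without wild-type FGO 3 (0.07 to 0.11) and Smc1b without wild-type FGO 14 (0.14 to 0.21). Values that crossed 0 were Bub1b in Dnmt3a mutants (-0.027 to 0.041) and, in MII, Bub1b (-0.062 to 0.0074), Aurkc (-0.047 to 0.011) and Stag3 (-0.038 to 0.041), and Sgo2a in the departure (-0.055 to 0.0059).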
